A study of Mus musculus with 4 samples.

Results

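RNA polymerase III (Pol III) is the enzyme that makes transfer RNAs, 5S ribosomal RNA and other short non-coding RNAs, and 10 genes of its machinery were followed here through 4 Sub1 peak lists. They are Maf1, the repressor of Pol III; Brf1 and Bdp1 of the initiation factor TFIIIB; Gtf3c1, Gtf3c2, Gtf3c3, Gtf3c4 and Gtf3c5 of the DNA-binding factor TFIIIC; and the Pol III subunit genes Polr3a and Polr3d. The genes were chosen by name, as 10 of 21883 protein-coding genes. For each, all peaks overlapping the gene body extended by 2 kb on either side, the gene window, were taken from each list. The windows held 65 peaks in HSC 1, 78 in HSC 2, 23 in LSC 1 and 25 in LSC 2.

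The peaks come from CUT&Tag, in which an antibody directs a transposase to cut and tag DNA near the bound protein, here with an antibody against Sub1. Sub1, also known as PC4, is a single-stranded DNA-binding transcription cofactor studied with both Pol II and Pol III. Hematopoietic stem cells (HSCs) were sorted from the bone marrow of Nup214fl/+ mice by their lack of CD48 and presence of CD150 within the LSK fraction, which lacks lineage markers and carries Sca-1 and c-Kit. Leukemia stem cells (LSCs) were sorted from Nup214fl/+ mice with leukemia driven by the MLL-AF9 fusion, as Lin-negative, Sca-1-negative cells positive for c-Kit, CD16/32 and CD34. All animals of both groups thus carried 1 floxed and 1 wild-type Nup214 allele, and the labels name no Cre and give no age, no route of MLL-AF9 delivery and no number of mice. The cell type field names a normal stem cell for all 4 samples, so the groups follow the titles. Each group had 2 libraries, and since the labels do not tie them to separate animals, their spread may be technical.

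In the textbook view, TFIIIC binds the internal promoters of transfer RNA genes, recruits TFIIIB next to the start site, and TFIIIB brings in Pol III for repeated rounds of transcription. Maf1 acts against this by binding Pol III and Brf1 when nutrients are short or cells are stressed. The genes of all these proteins are themselves transcribed by Pol II, so the windows described here are those of Pol II genes that encode the Pol III machinery. Whether any peak in them lies on a Pol III template was not tested.

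The 4 lists held 115881 peaks in HSC 1, 235680 in HSC 2, 41097 in LSC 1 and 34185 in LSC 2. Read totals were not given, and the caller's background, recovered from the spacing of the fold values, was 3.07, 7.47, 4.54 and 4.50 reads in the same order. Lists cut to the 34185 peaks of highest -log10 p per library are called equal-sized lists here. They served for ranks, and beside the deposited lists for window peaks, start peaks and coverage. Among markers of the sorted cells, 6 of 6 HSC genes had a window peak in each HSC library and 4 and 2 in LSC 1 and LSC 2. Mecom and Hlf had one in LSC 1 but not in LSC 2, and Slamf1 and Ly6a had 0 in both LSC libraries. Ly6a encodes Sca-1, which the LSC sort selects against. The 7 genes listed for LSCs were Fcgr3, Fcgr2b, Cd34, Kit, Mpo, Hoxa9 and Meis1, of which Mpo, Hoxa9 and Meis1 are not sort markers. Kit was also in the HSC list. All 7 had a window peak in 3 libraries and 6 in LSC 2, where Meis1 had none. All 6 neutrophil genes had one in every library; the B cell list had 4 of 4 in both HSC libraries and 1 of 4 in both LSC libraries. Erythroid genes numbered 2 or 3 of 4 throughout, and T cell genes 2, 4, 2 and 0 of 4, HSC 1 first and LSC 2 last. The part of such cells in the values below was not tested. Marker counts are given for 1 kind of list only. A window peak in the deposited lists was found in 69.7%, 83.8%, 62.4% and 58% of all protein-coding genes, HSC 1 first and LSC 2 last. The part of list length in the marker counts was not tested.

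Every one of the 10 genes carried Sub1 peaks in both cell types. All 10 had a window peak in each of the 4 libraries, where 56.1% of all protein-coding genes did. Library by library, 69.7% of all genes had one in HSC 1, 83.8% in HSC 2, 62.4% in LSC 1 and 58% in LSC 2. All 10 also had a peak within 1 kb of an annotated gene end in every library, against 48.7% of all genes. A window peak limited to the 2 HSC libraries was found in 0 members and 7.85% of all genes, and one limited to the 2 LSC libraries in 0 members and 0.0777%. In equal-sized lists all 10 again had a window peak in every library, against 50.1% of all genes and 54.2%, 56.7%, 60.5% and 58% per library; 0 were limited to HSCs (0.471%) and 0 to LSCs (2.49%).

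The strongest peak of the window lay at the start of the gene wherever the start was known. RefSeq gives a start for 6 of the 10 members, Bdp1 and the 5 TFIIIC genes, all on the minus strand. All 6 had a peak within 1 kb of it in all 4 libraries (49.8% of 17491 genes with a start, and 45.6% in equal-sized lists, where the 6 had it too), and in all 6 that peak was the strongest of the window in all 4 libraries (40.2%). A start peak limited to HSCs was found in 0 of the 6 in deposited (2.29%) and equal-sized lists (0.28%), and one limited to LSCs in 0 likewise (0.48% and 2.77%). For Maf1, Brf1, Polr3a and Polr3d the table used gives no strand, so they are described by the annotated end at which their peak lay: the low-coordinate end of Maf1 and the high-coordinate end of the other 3. Of the 10 genes, 9 had their strongest peak within 1 kb of an end in all 4 libraries (39.7% of all genes). The exception was Brf1, in LSC 1.

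**Figure D1:**
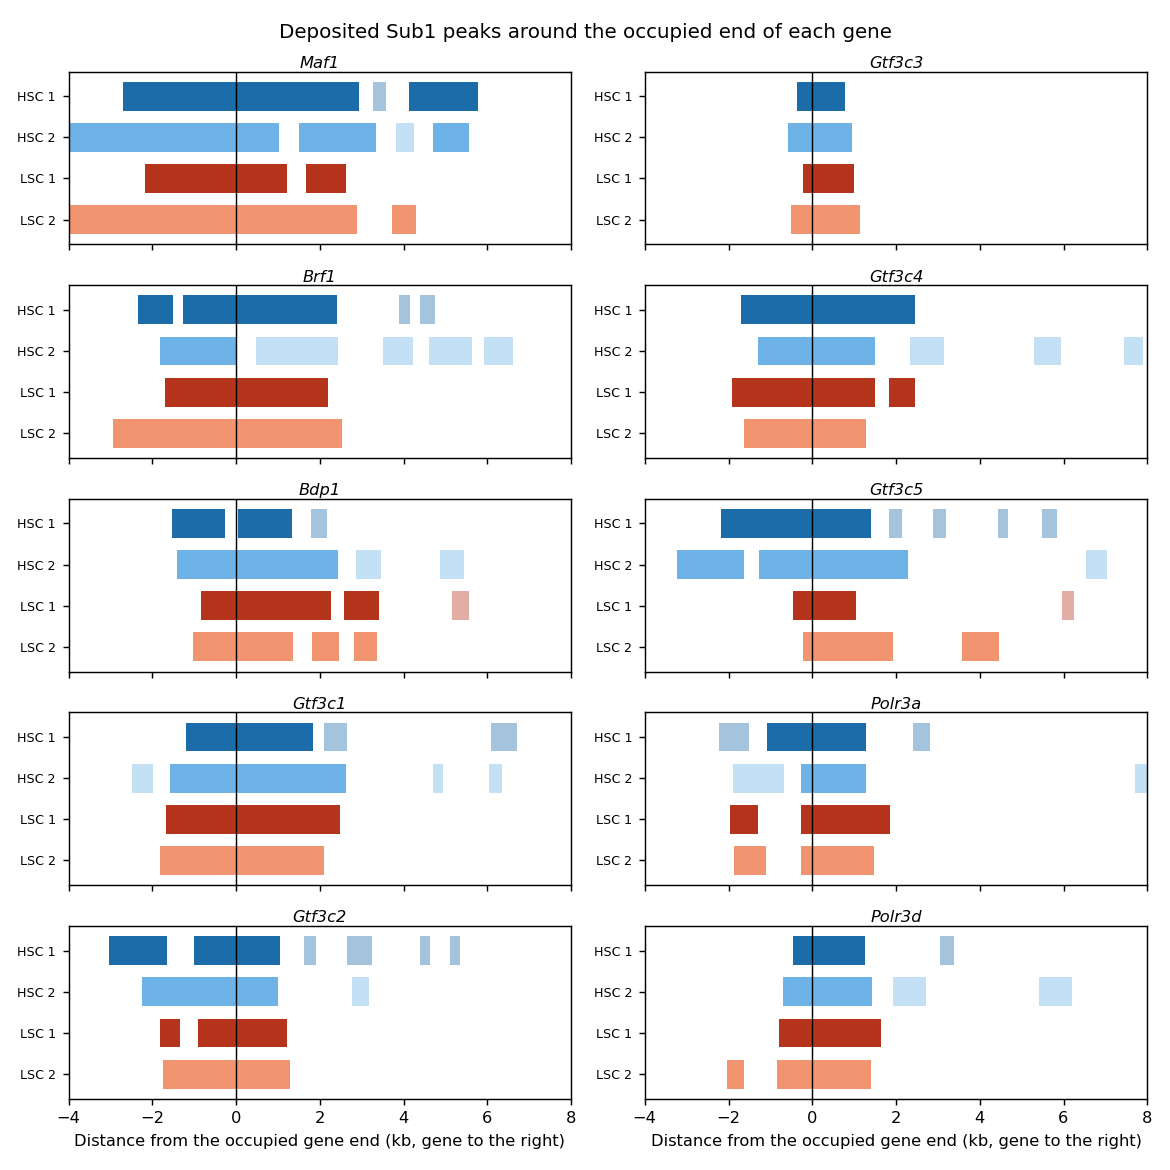
Peaks of each gene window in the 4 libraries, as horizontal bars against distance in kb from the occupied gene end (vertical line, gene body to the right), cropped at the panel edges. Pale bars are peaks outside the equal-sized lists. A block of signal lies across the line in nearly every track, and the Bdp1 track of HSC 1 shows a gap at it.

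The bases just before the start of Bdp1 and of 4 TFIIIC genes are printed here because the strongest peaks lie on or beside them. They are from RefSeq (GRCm38.p6, the mm10 assembly), read 5′ to 3′ on the minus strand and ending next to the gene. Each runs through at most 250 bases before the start and stops at the next annotated gene. Capitals mark matches, on either strand, to 8 searched motifs: the GC box GGGCGG, the ETS core CCGGAAG, the E box CACGTG, the CCAAT box, the TATA box TATAAA, the ZNF143 core ACTACAA, the cyclic AMP response element TGACGTCA and the NRF1 palindrome. No capitals of different motifs overlap.
Bdp1, chr13:100104091-100104320: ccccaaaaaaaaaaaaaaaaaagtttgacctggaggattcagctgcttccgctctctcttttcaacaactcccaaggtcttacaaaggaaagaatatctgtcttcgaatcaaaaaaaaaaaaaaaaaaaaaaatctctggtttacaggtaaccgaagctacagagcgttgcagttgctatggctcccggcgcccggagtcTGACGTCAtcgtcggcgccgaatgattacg
Gtf3c1, chr7:125707689-125707854: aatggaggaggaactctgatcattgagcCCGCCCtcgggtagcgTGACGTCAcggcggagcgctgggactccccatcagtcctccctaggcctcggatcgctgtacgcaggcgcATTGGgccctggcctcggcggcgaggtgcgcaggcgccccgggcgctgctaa
Gtf3c2, chr5:31180145-31180394: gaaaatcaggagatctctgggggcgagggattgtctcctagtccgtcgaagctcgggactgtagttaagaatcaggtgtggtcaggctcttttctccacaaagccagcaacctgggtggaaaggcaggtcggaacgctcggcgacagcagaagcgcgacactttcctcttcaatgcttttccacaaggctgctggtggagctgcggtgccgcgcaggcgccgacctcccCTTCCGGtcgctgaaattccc
Gtf3c3, chr1:54439027-54439276: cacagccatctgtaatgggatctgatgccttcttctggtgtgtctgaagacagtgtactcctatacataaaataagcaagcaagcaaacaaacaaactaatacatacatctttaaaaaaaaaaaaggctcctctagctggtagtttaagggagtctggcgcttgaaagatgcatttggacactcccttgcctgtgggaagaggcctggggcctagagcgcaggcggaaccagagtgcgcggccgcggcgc
Gtf3c4, chr2:28840361-28840405: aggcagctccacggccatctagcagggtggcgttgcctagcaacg

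Bdp1 and Gtf3c1 each hold TGACGTCA, which 1.55% of 32851 promoters of 250 bases hold. CCGGAAG was found in the 250 bases before Bdp1, Gtf3c1 and Gtf3c2 (6.91% of promoters); in Bdp1 and Gtf3c1 it lies outside the printed stretch. GGGCGG was found before Gtf3c1 and Gtf3c4 (32.7%), in Gtf3c4 beyond the printed stretch and past the start of Ddx31. CCAAT was found before Gtf3c1 and Gtf3c5 (33.8%). In Gtf3c1 it lies once inside the printed stretch and once across its upstream edge, where it is not in capitals. The E box, the NRF1 palindrome, the TATA box and the ZNF143 core were found before 0 of the 6, against 6.02%, 0.782%, 12.4% and 2.81% of promoters. Gtf3c3 held no match to any of the 8. GC content over the 250 bases ran from 44.4% in Bdp1 to 67.6% in Gtf3c1, around the median of 52.4% over all promoters, so the 6 starts lay on both sides of it. The printed stretches of Gtf3c1, Gtf3c2 and Gtf3c4 lay wholly inside peaks in every library. For Gtf3c3 all 250 bases were inside in 3 libraries and 219 in LSC 1. For Bdp1 all 230 bases were inside a peak in HSC 2, LSC 1 and LSC 2, and 0 in HSC 1.

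Maf1 had by far the highest peaks of the set. The gene, a conserved brake on Pol III, spans chr15:76351294-76354378 in mm10. Its end peak had a fold, the caller's ratio of summit pileup to background within 1 library, of 112 in HSC 1, 166 in HSC 2, 424 in LSC 1 and 349 in LSC 2. Folds depend on each library's background, so they order peaks within a list and are not compared between lists. By -log10 p that peak ranked 59, 47, 31 and 24 in the same order, within the first 0.137%, 0.0777%, 0.0685% and 0.0183% of protein-coding genes ordered by their strongest window peak. The summit stood at 76351302 in HSC 1 and LSC 2 and at 76351140 in HSC 2 and LSC 1, so the 2 positions were split across the groups and lay 162 bases apart. The first lies 8 bases inside Maf1 and the second in the gap of 183 bases between Maf1 and Sharpin, a gene of the linear ubiquitin ligase complex. The peak covered both gene ends in all 4 libraries. In at least 1 library it also overlapped the windows of Cyc1 and Gm35339, so to which gene it belongs was not tested. Its width was 5649, 5940, 3386 and 13436 bases from HSC 1 to LSC 2; in LSC 2 it ran from 76340758 to 76354193.

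The genes whose strongest window peaks ranked most like that of Maf1 over the 4 libraries, leaving out those under the same peak, were Hdlbp and Septin2, then Tap1, Ncln and S1pr4. Likeness was the sum over 4 libraries of the absolute log2 ratio of ranks, 0.62 for Hdlbp and Septin2, which share 1 peak ranked 56, 45, 25 and 27. It was 0.83 for Tap1 and 0.98 for Ncln and S1pr4, again under 1 peak.

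In TFIIIB, Brf1 and Bdp1 each had a strong peak at 1 end and weaker peaks along a long gene body. Brf1, the subunit that bridges TFIIIC and Pol III, spans chr12:112955631-113000706. Its high-end peak had folds of 55.5, 57.7, 170 and 120, again from HSC 1 to LSC 2, and its summit lay outside the gene in all 4 libraries, by 356, 546, 318 and 359 bases. The near end of the non-coding gene 9230104M06Rik is separated from that end by 17 bases, and in HSC 2 the peak began only beyond the end, at 113000717. The start of Btbd6, a gene lying within the Brf1 span, carried a second strong peak, with folds of 35.6 in HSC 1, 180 in LSC 1 and 31.8 in LSC 2, and a weak one of 7.79 in HSC 2. In LSC 1 the Btbd6 peak, ranked 1910, was above the end peak of Brf1, which is why Brf1 was the exception there.

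Bdp1, the TFIIIB subunit that holds the complex on DNA, spans chr13:100017994-100104090. Its start peak had folds of 19.4 in HSC 1, 48.5 in HSC 2, 164 in LSC 1 and 92.1 in LSC 2. HSC 1 was the low library here: at the start it had 2 peaks of nearly equal fold, 19.4 on the gene side and 18.2 upstream, where the other 3 libraries had 1 unbroken peak of 2383 to 3865 bases. Among protein-coding genes ordered by strongest peak it was at place 8761 in HSC 1, against 4304, 3311 and 4988 in HSC 2, LSC 1 and LSC 2. The far end of the Bdp1 window was touched by peaks at the start of Mccc2, a leucine catabolism gene, with folds of 7.56 in HSC 2, 62.6 in LSC 1 and 42.5 in LSC 2. The Mccc2 peak of HSC 1, of fold 15.0, stopped short of the window.

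TFIIIC is the factor that recognises transfer RNA promoters, and its 5 measured genes had start peaks of unequal height and width. Gtf3c1, which encodes the largest subunit of the module that contacts the B box and spans chr7:125640954-125707688, had start-peak folds of 46.4, 57.4, 222 and 167 in HSC 1, HSC 2, LSC 1 and LSC 2. Its summit fell on the same base in HSC 1, LSC 1 and LSC 2, 346 bases into the gene, and 689 bases into it in HSC 2. The peak also covered the start of D430042O09Rik in all 4 libraries, a gene that runs the other way and is separated from Gtf3c1 by 166 bases, and those bases are the ones printed above.

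Gtf3c2 spans chr5:31156006-31180144, and its start peak had folds of 42.5, 70.4, 209 and 147. Its summit was again inside the gene, by 652, 599, 457 and 457 bases, and identical in the 2 LSC libraries. At its far end the window took in a peak at the start of Mpv17, a mitochondrial membrane protein gene, of fold 15.0, 19.8, 33.7 and 28.2. The Gtf3c2 peak was thus higher than its neighbour's in each library.

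Gtf3c3 was the plainest locus of the set. It spans chr1:54395877-54439026, and outside 1 weak peak in HSC 2, of fold 5.19, the start peak was the only peak of its window. That peak had folds of 23.8, 41.6, 142 and 130 in HSC 1, HSC 2, LSC 1 and LSC 2 and was narrow, at 1155 to 1643 bases. All 4 peaks shared a core of 1004 bases, chr1:54438242-54439245.

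Gtf3c4 spans chr2:28822299-28840360 and is separated by 45 bases from Ddx31, a helicase gene on the opposite strand. Their common peak had folds of 38.8, 47.8, 198 and 155 and covered both starts in all 4 libraries. The summit lay on the Gtf3c4 side in HSC 1, LSC 1 and LSC 2, 321, 77 and 410 bases into the gene, and on the Ddx31 side in HSC 2, 436 bases from the Gtf3c4 start. The range of 846 bases was the widest among the 10 genes.

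Gtf3c5 spans chr2:28566245-28583279 and had the lowest start peak of the 5 in all 4 libraries, with folds of 21.6, 31.2, 119 and 72.5. Its summits were 332, 692, 345 and 475 bases inside the gene.

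Polr3a had the lowest end peak of the 10 genes in LSCs and Polr3d one of the highest. Polr3a, which encodes the largest catalytic subunit of Pol III, spans chr14:24448694-24487070, and its high-end peak had folds of 23.3 in both HSC 1 and HSC 2, 77.6 in LSC 1 and 47.2 in LSC 2. In the HSC libraries its fold was near that of Gtf3c3 and Gtf3c5 in HSC 1 and the lowest of the 10 in HSC 2. Polr3d, a smaller subunit gene at chr14:70438748-70443471, had folds of 38.1, 53.0, 248 and 162. In LSC 1 only Maf1 stood higher among the 10. The summit at Polr3d lay at its high end in HSC 2, LSC 1 and LSC 2, within 22 bases of it, and 145 bases beyond it in HSC 1. Mir320 is separated from that end by 38 bases, and the peak covered the Polr3d end and the near end of Mir320 in all 4 libraries.

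At the 6 known starts, summits lay downstream of the start in 6, 5, 6 and 6 members in HSC 1, HSC 2, LSC 1 and LSC 2. The same held for 69.4%, 64.5%, 75.0% and 73.9% of the start peaks of all genes with 1 listed start, with a median position 178, 206, 187 and 217 bases into the gene. The members' summits were thus on the side that is the common one in these libraries.

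Maf1 kept the first place among the 10 in every library, while places below it moved. In equal-sized lists, Maf1 was followed in HSC 1 by Brf1 at rank 952 and Gtf3c1 at 1787, and Bdp1 at 8623 came last. In HSC 2 the next were Gtf3c2 at 1313 and Brf1 at 2291, and in both HSC 2, at 9431, and the LSC libraries, at 7272 and 7465, Polr3a was last. In LSC 1 the next were Polr3d at 516 and Gtf3c1 at 884, and in LSC 2 Gtf3c1 at 787 and Polr3d at 900. The median rank of the 10 was 3044.5, 3085.5, 1640 and 1599.5 from HSC 1 to LSC 2. Over 10953 genes with a peak in all 4 equal-sized lists the medians were 4454, 4517, 4397 and 4261.

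Ranks were nearer the top in both LSC libraries than in either HSC library for 6 of the 10 genes, Maf1, Gtf3c1, Gtf3c3, Gtf3c4, Gtf3c5 and Polr3d, and the reverse held for 0. Of all protein-coding genes, 20.5% showed the first pattern and 9.95% the second; of genes with a peak in all 4 equal-sized lists, 30.3% and 18.3% did. At Polr3d the ranks were 3116 and 2793 in HSCs against 516 and 900 in LSCs. At Gtf3c4 they were 2973 and 3486 against 1370 and 1103. At Gtf3c3, with 6846 and 4418 against 3480 and 1879, the groups were parted by a narrower gap. Brf1, Bdp1, Gtf3c2 and Polr3a overlapped between groups. With 2 libraries a group, the two-sided exact permutation test cannot pass for a single gene, since its smallest p is 0.33. Without HSC 2, Brf1 and Polr3a stood nearer the top in HSCs. Brf1 ranked at 952 against 1910 and 2258, and Polr3a at 7015 against 7272 and 7465. With 1 HSC library left, the no-overlap rule is easier to meet, so no count is given. The direction turned when ranks were taken as percentiles of the deposited lists: 7 genes were then nearer the top in HSCs (56.7% of all genes, and 86.4% of those with a peak in all 4 equal-sized lists) and 0 in LSCs (0.731% and 0.283%).

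**Figure D2:**
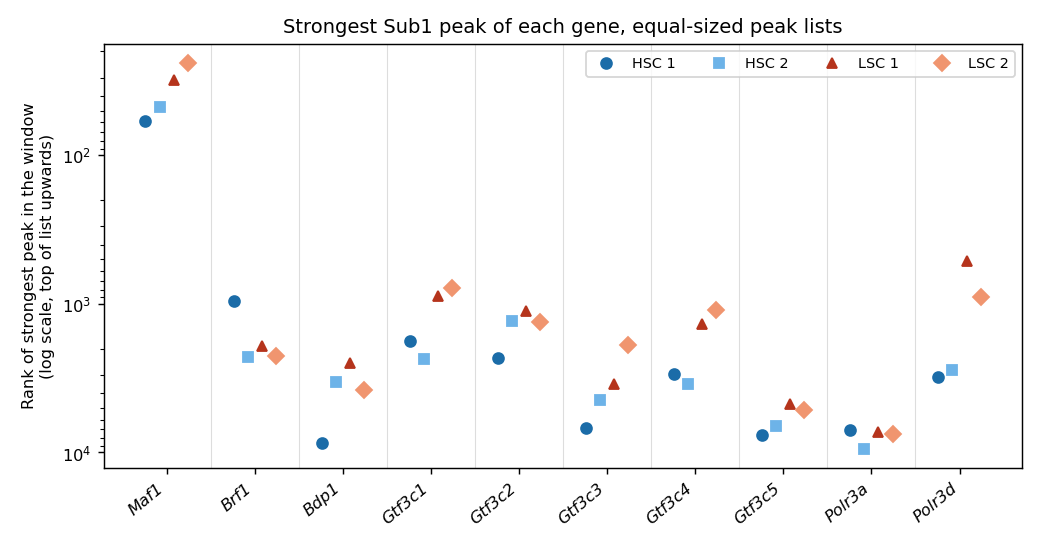
Rank of the strongest peak in each gene window (log scale, top of the list upwards) within the 34185 highest peaks of each library, 1 point per library. Maf1 lies between ranks 24 and 59 in all 4 libraries, and the LSC points of Polr3d and Gtf3c4 lie above their HSC points.

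Beyond the end peaks, the HSC lists held many more peaks along these genes than the LSC lists. The median number of window peaks was 4.5, 6.5, 2 and 2 for the 10 genes from HSC 1 to LSC 2. Over all protein-coding genes it was 2, 4, 1 and 1, so it was higher in the HSC lists there too. Apart from the end peak of each gene, windows held 55 peaks in HSC 1, 68 in HSC 2, 13 in LSC 1 and 15 in LSC 2. Their median folds were 6.88, 6.67, 8.12 and 5.82, and they took in the peak at the start of Btbd6, of fold 180 in LSC 1. Brf1 had 17 and 18 window peaks in HSCs and 5 in each LSC library. Gtf3c1 had 11 and 12 against 1 and 2, and Gtf3c5 had 9 and 6 against 2 and 2. Peak numbers were higher in both HSC libraries than in either LSC library for 6 of 10 genes (52.3% of all genes) and lower for 0 (0.315%). Of the 55 further peaks of HSC 1, 23 overlapped a peak of HSC 2, and 20 of the 68 of HSC 2 overlapped one of HSC 1. Most of these peaks thus had no partner in the other HSC library. Of the 13 of LSC 1, 7 overlapped a peak of LSC 2, and 6 of the 15 of LSC 2 overlapped one of LSC 1. In equal-sized lists the windows held 20, 14, 21 and 25 peaks from HSC 1 to LSC 2. Numbers were then higher in HSCs without overlap for 0 genes (5.96%) and in LSCs for 3, Brf1, Bdp1 and Polr3a (7.39%).

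**Figure D3:**
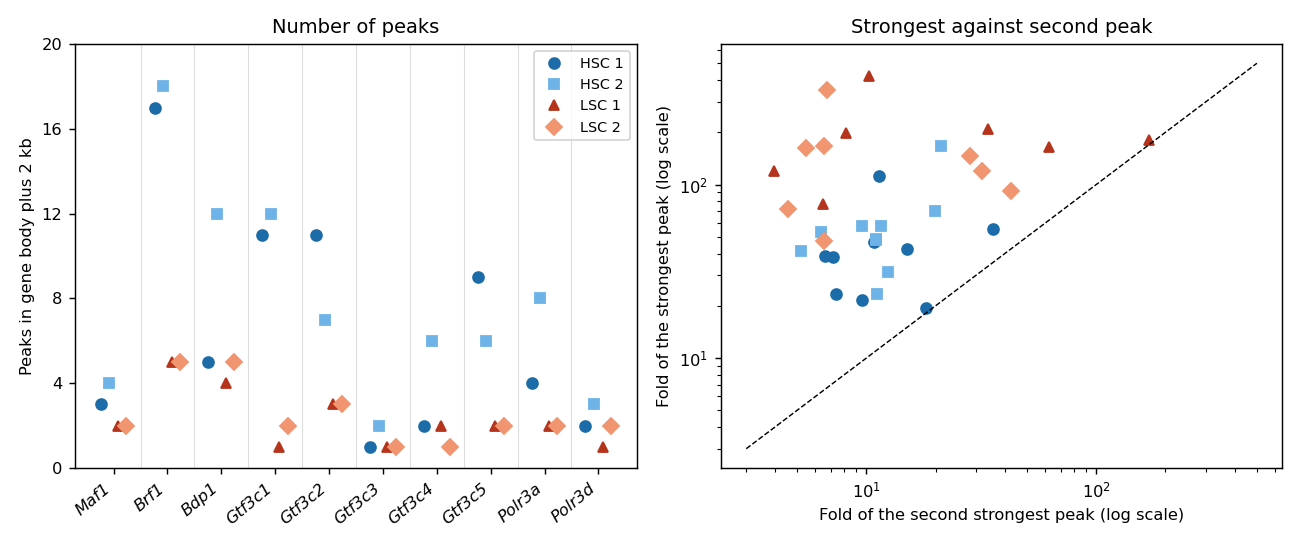
Left, number of deposited peaks in each gene window, 1 point per library; Brf1 reaches 17 and 18 in the HSC libraries. Right, fold of the strongest against the second strongest peak of each window on log axes, with a dashed line of equality and genes with 1 peak left out; the Bdp1 point of HSC 1 and the Brf1 point of LSC 1 lie close to the line.

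The share of each gene window under peaks differed in direction between the deposited and the equal-sized lists. Maf1 was covered over 87.6%, 80.6%, 58.9% and 77.2% of its window from HSC 1 to LSC 2, a mean of 84.1% ± 4.96 (SD, n = 2) against 68.1% ± 12.9 (SD, n = 2). The mean difference of 16.0 percentage points was 6.88 without LSC 1 and 25.1 without LSC 2. Gtf3c5 was covered over 29.3% and 27.4% in HSCs against 8.49% and 14.4% in LSCs, with means of 28.4% ± 1.33 and 11.4% ± 4.18 (SD, n = 2 each). Gtf3c3 had the least coverage, at 2.45% and 4.27% in HSCs and 2.58% and 3.48% in LSCs, and its groups overlapped. Coverage was higher in both HSC libraries than in either LSC library for 7 of 10 genes, against 42.8% of all genes and 59.5% of genes with a peak in all 4 equal-sized lists. It was higher in LSCs for 0 (2.24% and 2.91%). For each of the 7, the two-sided exact permutation test gave p = 0.33, its smallest value, and for Bdp1, Gtf3c3 and Polr3d it gave 1.00.

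In equal-sized lists the sign of the mean coverage difference turned for 8 of the 10 genes. It came to only -0.014 percentage points at Gtf3c4 and -0.18 at Gtf3c3, and the share of all genes that turned was not counted. Brf1, Bdp1, Gtf3c2, Polr3a and Polr3d were then covered more in both LSC libraries than in either HSC library (5 of 10, against 18.9% of all genes and 27.6% of those with a peak in all 4). Gtf3c5 alone was covered more in both HSC libraries (10.5% and 19.2%). Polr3d then had 19.7% and 24.4% in HSCs against 28.0% and 30.1% in LSCs. Gtf3c5 had 18.1% and 18.8% against 7.09% and 14.4%. Coverage was thus higher in HSCs with either kind of list for Gtf3c5, whose groups did not overlap, and for Maf1, whose groups overlapped in equal-sized lists.

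**Figure D4:**
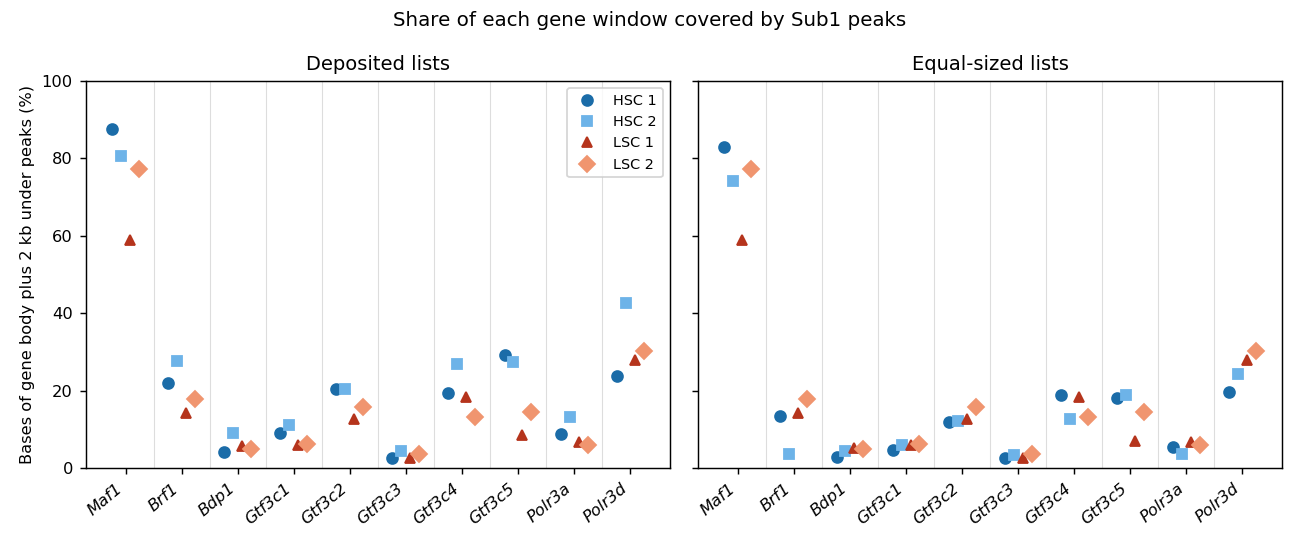
Percent of the bases of each gene window that lie in peaks, for the deposited lists (left) and the equal-sized lists (right), 1 point per library. Gtf3c5 keeps its HSC points above its LSC points in both panels, while Polr3d has its LSC points on top only in the right panel.

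The other listed genes of Pol III transcription carried peaks in every library too. The list held 28 further genes: other Pol III subunits, subunits shared with Pol I or Pol II, Tbp, Brf2, Gtf3a, Gtf3c6, the SNAPc genes that serve U6-type promoters, Ssb, Pou2f1 and Zfp143. All 28 had a window peak in all 4 libraries, in deposited (56.1% of all genes) and equal-sized lists (50.1%), and all 24 with a known start had a start peak in all 4 in both (49.8% and 45.6%). Their strongest peaks were nearer the top in LSCs without overlap for 10 of 28 genes (20.5% of all genes and 30.3% of those with a peak in all 4 equal-sized lists) and in HSCs for 2, Polr3c and Crcp (9.95% and 18.3%). Polr3c ranked at 2603 and 1264 in HSCs against 5863 and 5914 in LSCs, and Crcp, also a subunit gene, at 2973 and 4227 against 4364 and 4672. Polr3g, the subunit gene known for expression in pluripotent cells, stood at 4039 and 2495 against 1675 and 1045. Tbp, which encodes the TATA-binding protein shared by all 3 polymerases, was high in every library, at 354, 612, 258 and 597. Polr3g and Tbp were chosen after their values were seen.

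Pol I makes the large ribosomal RNA precursor and Pol II the messenger RNAs, and their genes were counted beside these. Of 13 Pol I genes listed, 10 were matched by symbol, and all 10 had a start peak in all 4 deposited lists. In equal-sized lists Taf1a, a subunit of the Pol I selectivity factor, had one in the 2 LSC libraries alone (2.77% of genes with a start). All 7 Pol II subunit genes had a window peak in all 4 libraries, and all 5 with a known start had a start peak. Without overlap, strongest peaks were nearer the top in LSCs for 6 of 10 Pol I genes and 3 of 7 Pol II subunit genes (20.5% of all genes). They were nearer the top in HSCs for 1 and 2 (9.95%). Of genes with a peak in all 4 equal-sized lists, 30.3% were nearer the top in LSCs and 18.3% in HSCs. Coverage in deposited lists was higher in HSCs without overlap for 6 of 10 Pol I and 5 of 7 Pol II subunit genes. The same held for 15 of the 28 further Pol III genes, 42.8% of all genes and 59.5% of genes with a peak in all 4 equal-sized lists. The median gene rank, as a percent of all protein-coding genes, was 17.8%, 18.2%, 10.2% and 10.6% for the 10 genes in HSC 1, HSC 2, LSC 1 and LSC 2, and 17.4%, 16.8%, 11.9% and 13.9% for the Pol II subunit genes. It was 24.5%, 25.1%, 24.4% and 21.5% for the 28 further Pol III genes and 32.7%, 35.7%, 24.6% and 23.5% for the Pol I genes.

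The depth behind the end peaks was high enough to place them well above the caller's threshold. Pileup at the summit, recovered from the fold and the background, ran from 78 reads at Bdp1 to 454 at Maf1 in HSC 1 and from 196 at Polr3a to 1408 at Maf1 in HSC 2. In LSC 1 it ran from 429 to 2349 and in LSC 2 from 259 to 1920, from Polr3a to Maf1 in both. PCR copies are not separate molecules, and their handling is not given in the sources used here.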

How the data were processed

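Sub1 CUT&Tag libraries of sorted HSCs and LSCs, 2 each, were made with 17 to 20 PCR cycles, per the labels' protocols. Per the submitters' processing notes, FastQC 0.11.5, Bowtie2 2.2.9, MACS2 and ChIPseeker were used with mm10. One peak list per library was deposited. The deposited values per peak are a score, a fold over background (a ratio), a -log10 p and a -log10 q, all the authors' own. Peak names in the deposited lists carry a prefix, H4-Cut, that the labels do not explain.

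The 10 genes, the other lists and the tests were chosen with earlier results of these data known. All 10 genes are named, and other genes were named if they neighboured a strongest peak or ranked most like Maf1. Of the further Pol III, Pol I and Pol II genes whose ranks differed between groups, only Polr3c, Crcp, Polr3g and Taf1a are named. The others are only counted. Btbd6, Mccc2, Mpv17, Polr3g and Tbp were added after their values were seen. Windows came from RefSeq GRCm38.p6, and an overlap of 1 bp counted. For covered shares, the exact permutation test was two-sided and ran over 6 assignments. Scripts were tested on simulated data. Background was solved so that nearly all folds gave whole pileups, within 0.05. Start peaks were assessed only for genes with a listed start. Alternatives were window size, a -log10 q of at least 10, shorter lists, other overlap rules, ranking by fold, a replicate block and leaving out each library. Python 3.11.15, NumPy 2.4.6, pandas 2.3.3 and matplotlib 3.10.9 were used.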

Additional observations from a re-analysis of the deposited data

How the results depend on the processing

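The 10 genes with a window peak in all 4 libraries stayed at 10 under each alternative. When 50% of the peak had to lie in the start window, the 6 with a start peak fell to 4 and the 24 further Pol III genes to 13. The 24 also fell to 20 when the summit had to lie in it. The share of all genes with a start peak under these stricter rules was not counted. Direction in coverage did depend on list length. In equal-sized lists the coverage difference, HSC minus LSC in percentage points, was -7.45 at Brf1, -1.54 at Bdp1, -0.76 at Gtf3c1, -2.24 at Gtf3c2, -0.18 at Gtf3c3, -0.014 at Gtf3c4, -1.69 at Polr3a and -6.99 at Polr3d, all positive before shortening. With only 17092 peaks kept it was -6.29 at Brf1, -0.22 at Bdp1, -0.61 at Gtf3c1, -0.53 at Gtf3c2, -0.18 at Gtf3c3 and -4.83 at Polr3d, and with a window of 5 kb it was -0.092 at Bdp1. The 7 genes covered more in HSCs and 0 in LSCs became 1 and 5 in equal-sized lists (10.5% and 18.9% of all genes). In lists of 17092 peaks they became 1 and 2, for which no share of all genes was counted. When 1 library is left out, the no-overlap rule is easier to meet, and no share of all genes was counted there either. No conclusion is drawn from the counts that follow. Leaving out 1 library, the counts ran from 7 to 10 and from 0 to 3, the last without HSC 2, and the differences from -1.21 to 3.66 at Bdp1, -0.58 to 1.24 at Gtf3c3 and -5.32 to 13.5 at Polr3d. The difference of 16.0 at Maf1 ran from 6.88 without LSC 1 to 25.1 without LSC 2; that of 7.42 at Gtf3c4 fell to 3.76 without HSC 2 and 4.86 without LSC 2, and that of 4.69 at Polr3a to 2.52 without HSC 2. The negative values came without HSC 2 and, at Gtf3c3, also without LSC 1. For ranks, the 0 genes nearer the top in HSCs and 6 in LSCs became 7 and 0 as percentiles of the deposited lists. Percentiles divide by list length, and 56.7% and 0.731% of all genes showed those patterns. The labels do not say that replicate numbers pair libraries, and over 21883 genes the deviations of equal numbers correlated at -0.080. With the replicate block the coverage difference at Maf1 was 16.0 and its p 0.5, the smallest that 2 pairs allow, so no covered share passed with or without it. Read depth per library is not known, so absent weak peaks in LSCs cannot be told apart from peaks under the caller's limit.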
